A study of Mus musculus with 2 samples.

Results

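Cd4, Cd8a, Cd8b1, Zbtb7b and Bcl11b are 5 of the 21853 protein-coding genes of the mouse annotation, and 19 of the 29415 regions of accessible chromatin in regulatory T (Treg) cells were assigned to them. A region was assigned to a gene if it overlapped the gene body or the 5 kb on either side of it, or if the nearest protein-coding transcript start within 100 kb belonged to the gene. The regions came from ATAC-seq, in which the transposase Tn5 cuts accessible DNA and leaves sequencing adapters in it. The cells were primary inflammation-experienced Treg cells from an adult male mouse aged 6 months, of the strain Foxp3CreERT2 x Rosa26YFP. In that strain the gene Foxp3 drives a drug-inducible Cre recombinase and the Rosa26 locus carries a yellow fluorescent reporter, so Cre is limited to cells that express Foxp3. The labels give neither the inflammation nor how the cells were isolated, and they trace the cells to a haematopoietic cell of the bone marrow. Both samples came from 1 mouse as technical replicates of a single biological replicate, and the deposited lists held them together. There was 1 group, so nothing here is a difference between conditions, and no spread between animals could be measured.

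A developing T cell in the thymus carries both co-receptors, CD4 and CD8, and keeps 1 of them when it matures. CD4 binds MHC class II and marks helper and regulatory T cells; CD8, a dimer of an alpha chain (Cd8a) and an alpha or beta chain (Cd8b1), binds MHC class I and marks cytotoxic T cells. Zbtb7b encodes ThPOK, the zinc finger repressor that directs cells to the CD4 lineage, and Runx3 opposes it in the CD8 lineage. Bcl11b encodes a zinc finger factor that commits precursors to the T lineage and is required in mature T cells, Treg cells included. A silencer in the first intron of Cd4, bound by RUNX factors, keeps Cd4 off in CD8 T cells, and enhancers between Cd8b1 and Cd8a and around Cd8a drive the CD8 genes. The annotation used here marks none of these elements, so no region below is identified with one.

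Every region carried a fold enrichment of reads over a background that the sources do not define, a −log10 p-value from the authors' peak caller and the position of its summit, the base with the most signal. The irreproducible discovery rate (IDR) ranks how well a peak recurs when 2 sets of reads are compared, and the main list kept peaks with an IDR of up to 0.05. These folds and p-values are the authors' and serve only to describe and rank regions. A region open in fewer cells and one less open in each cell cannot be told apart in such bulk data. Of the 5 genes, 4 had at least 1 region, set against 63.2% of all coding genes. A promoter region, meaning one that overlapped the 1000 bp on either side of a protein-coding start, was found at 3 of the 5, set against 49.7% of all coding genes. With 5 genes neither share is read as a difference from the background. At least 3 regions were assigned to 1 of the 5 genes, Bcl11b, set against 21.0% of all coding genes.

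The cell type label was checked against marker genes. Promoter regions were found at all 6 T cell markers (Cd3e, Cd3d, Cd3g, Lck, Cd5 and Cd28) and at 4 of 5 Treg markers, among them Foxp3 with a fold of 9.62; Tnfrsf18 had 5 regions but no promoter region. Of 6 genes of cytotoxic CD8 or NK cells 1 had a promoter region, Prf1 with a fold of 13.4, and Gzmk had 3 regions but no promoter region. Of 4 B cell genes 1 had a promoter region, Pax5 with a fold of 15.4, and Cd79a had 3 regions but no promoter region. Both folds were above those of the 4 Treg promoters, which ran from 4.92 to 10.998. They lay within the range of the 6 T cell promoters, 10.97 to 16.07. The median over all coding genes with a promoter region, 16.4, was higher than both. Of 5 genes of myeloid and dendritic cells 0 had a promoter region. Over all coding genes the share with a promoter region was 49.7%, and each marker list is short. CD8 T cells carry CD8, and some dendritic cells carry CD4 or CD8; the part of such cells in the regions below was not tested.

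The sequences below are from the GRCm38 (mm10) reference, as the RefSeq genome file of GRCm38.p6 holds it, on the plus strand. They show up to 100 bases on either side of a summit, without annotated untranslated regions. Capitals mark matches to any of 13 short motifs, whose letters are given with the motif counts further on. The first 4 are the regions with the greatest fold inside each gene or its 5 kb margin. They lie at chr6:124885247-124885447 in intron 1 of Cd4, at chr6:71322483-71322683 upstream of Cd8b1 and at chr12:108004042-108004242 upstream of Bcl11b. That of Zbtb7b, at chr3:89393679-89393825, is upstream of all its coding starts but inside the annotated gene. Cd8a has no entry because it had no region. The Cd8b1 window holds 4 matches and the Bcl11b window none.
Cd4 intron 1: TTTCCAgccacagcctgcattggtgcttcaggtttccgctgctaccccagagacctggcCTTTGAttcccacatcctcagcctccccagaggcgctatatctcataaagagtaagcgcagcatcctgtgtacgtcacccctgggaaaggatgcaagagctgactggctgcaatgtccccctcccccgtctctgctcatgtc
Cd8b1 promoter: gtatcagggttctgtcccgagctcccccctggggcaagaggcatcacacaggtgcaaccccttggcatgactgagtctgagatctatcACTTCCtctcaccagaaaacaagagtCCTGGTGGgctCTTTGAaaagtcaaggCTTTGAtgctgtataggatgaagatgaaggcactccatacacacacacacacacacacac
Zbtb7b promoter: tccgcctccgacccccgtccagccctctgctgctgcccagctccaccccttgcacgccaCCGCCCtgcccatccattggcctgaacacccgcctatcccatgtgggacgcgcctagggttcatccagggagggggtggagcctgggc
Bcl11b promoter: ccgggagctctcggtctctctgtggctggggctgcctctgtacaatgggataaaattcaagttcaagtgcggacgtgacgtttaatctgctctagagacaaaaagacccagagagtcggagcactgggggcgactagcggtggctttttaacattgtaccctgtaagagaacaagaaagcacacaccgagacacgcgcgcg

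Cd4 (ENSMUSG00000023274.14) spans 23.5 kb at chr6:124864692-124888221 on the minus strand, with 10 exons and 1 coding transcript start. Its only region lay at chr6:124885127-124885760, in intron 1, with the stronger of its 2 summits 2874 bp downstream of the start. That region had a fold of 19.5, higher than 83.0% of all 29415 regions and 88.6% of the regions outside promoters, and a −log10 p of 378, higher than 93.4% of all regions. It was the strongest of the 19 by both measures. The 2 sets of reads gave it −log10 p-values of 171 and 201, and its IDR was 0.000256. Its CpG observed over expected ratio was 0.172, and its summit window held a TCF or LEF match, CTTTGA.

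The start of Cd4 showed the opposite. No region of the thresholded list lay within 1000 bp of it. The longer pseudoreplicated list, which admits weaker peaks, placed 1 at chr6:124888114-124888312, with its summit in exon 1, 4 bp from the start. That peak had a fold of 3.94 and an IDR of 0.153, with −log10 p-values of 15.6 and 9.45 in the 2 sets. So the Cd4 start was listed, at a fold lower than all but 1.23% of thresholded regions, while the intron 2.87 kb away was among the strongest.

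Another peak of Cd4, also in the pseudoreplicated list only, lay between the strong region and the start. At chr6:124885893-124886114, 2212 bp downstream of the start in intron 1, it had a fold of 2.80 and −log10 p-values of 4.12 and 10.8 in the 2 sets, and its IDR of 0.357 was the highest value at these genes, shared with other weak peaks. Its summit lay between 2 RUNX matches, one starting 17 bases before it and the other 17 bases after it. The sequence is shown for these matches and was chosen after they had been seen. It spans chr6:124885909-124886109. The capitals are ACCACA, the RUNX motif TGTGGT read on the other strand.
Cd4 intron 1, weak peak: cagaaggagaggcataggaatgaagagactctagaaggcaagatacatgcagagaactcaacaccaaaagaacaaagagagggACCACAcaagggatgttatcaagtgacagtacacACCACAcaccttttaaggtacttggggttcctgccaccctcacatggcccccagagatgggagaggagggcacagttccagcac

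The assignment rule splits the 16.1 kb between the start of Cd4 and the 3′ end of Lag3, its upstream neighbour and the gene of an inhibitory receptor that also binds MHC class II. Beyond the midpoint of the 2 starts a region counts for Lag3. Both thresholded regions of this interval fell there. The nearer lay at chr6:124900936-124901526, with its summit 12910 bp upstream of the Cd4 start and 10574 bp from the Lag3 start, and had a fold of 7.61, a −log10 p of 65.4 and an IDR of 0.00357. The farther lay at chr6:124903599-124904067, 15519 bp upstream of Cd4, and had a fold of 7.98, a −log10 p of 84.5 and an IDR of 0.00225. Their folds exceeded 14.8% and 16.9% of all regions. The pseudoreplicated list added 1 peak on each side of the nearer region, at 12371 and 13771 bp, with folds of 4.11 and 3.84. A proximal enhancer of Cd4 is known from this interval in mouse T cells; no region was matched to it here. The interval was looked at after its values were known, and its 4 peaks are not among the 19 regions. The windows span chr6:124901031-124901231 and chr6:124903640-124903840, and they are shown because these are the 2 thresholded regions between Cd4 and Lag3. The first holds a GATA match (TTATCT, 55 bases before its summit); the second holds a Myb match and a CTCF match.
Cd4 upstream, nearer region: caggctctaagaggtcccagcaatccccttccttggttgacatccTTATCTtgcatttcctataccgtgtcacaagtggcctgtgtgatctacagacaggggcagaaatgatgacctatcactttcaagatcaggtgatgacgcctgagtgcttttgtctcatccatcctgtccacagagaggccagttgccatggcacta
Cd4 upstream, farther region: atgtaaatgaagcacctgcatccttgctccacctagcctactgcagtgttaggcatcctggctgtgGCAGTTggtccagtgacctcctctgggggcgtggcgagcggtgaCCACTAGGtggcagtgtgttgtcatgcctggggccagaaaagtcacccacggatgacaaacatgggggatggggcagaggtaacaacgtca

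The other end of Cd4 held only weak peaks. The pseudoreplicated list placed 2 peaks in its 3′ margin, and both lay nearer the starts of other genes: one had a fold of 7.43, 173 bp upstream of the start of Gpr162, and the other had a fold of 4.41 and was nearest to P3h3. P3h3, a collagen-modifying enzyme, had a promoter region with a fold of 12.5, while Gpr162 and Lag3 had none. Lag3 had 3 regions in all.

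**Figure D1:**
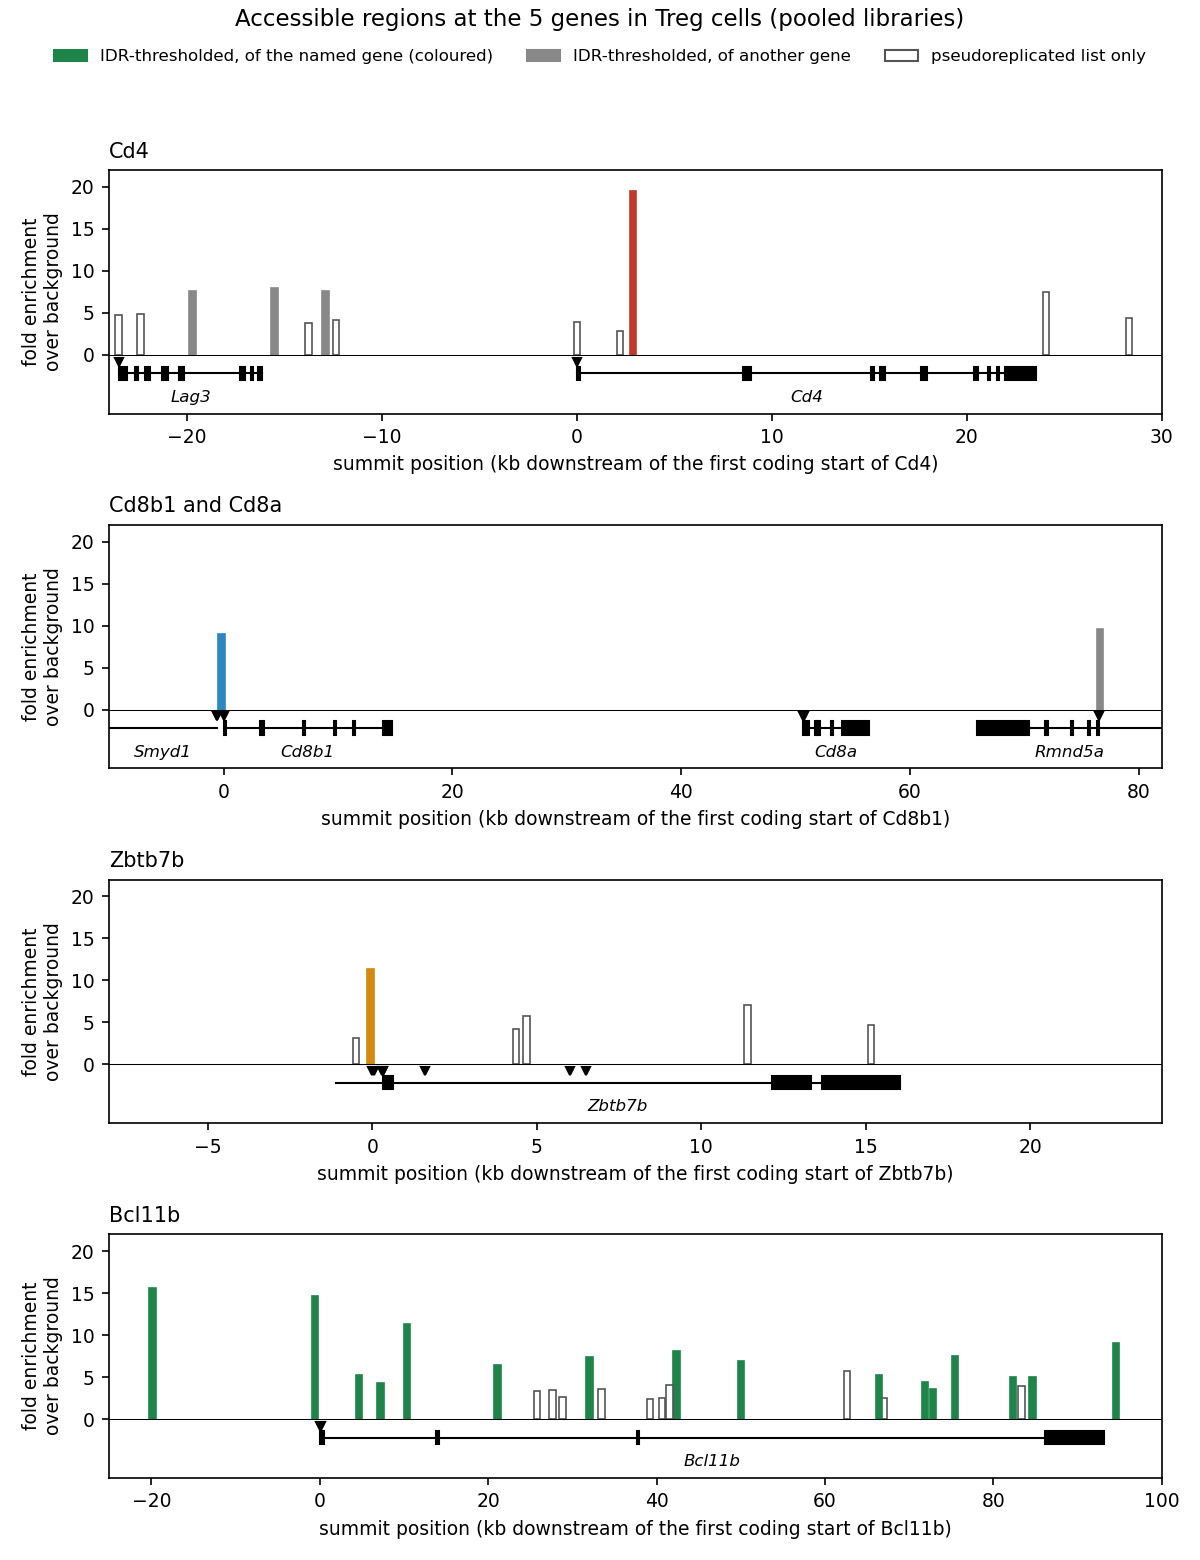
Fold enrichment over background (y) of each accessible region against the position of its summit in kb from the first coding start (x), for 4 loci; coloured bars are thresholded regions of the named gene, grey bars thresholded regions of another gene, open bars peaks of the pseudoreplicated list alone, black boxes exons and triangles coding starts. Cd4 has 1 bar of 19.5 in intron 1, no bar lies between the start of Cd8b1 and a start of Rmnd5a, and Bcl11b has 16 bars.

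Cd8b1 and Cd8a are neighbours on the plus strand of chromosome 6. Cd8b1 (ENSMUSG00000053044.8, chr6:71322788-71337494, 6 exons) encodes the beta chain. Its only region lay over its start, at chr6:71322284-71323357. Its fold of 8.98 was higher than 22.9% of all regions, its −log10 p of 26.2 higher than 3.68%, and its IDR was 0.0200. It was broad for its height: at 1074 bp it was wider than 85.8% of all regions and the widest of the 19. Among the promoters of all coding genes with a promoter region, 8.19% had a lower fold.

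The breadth came from 4 summits on both sides of the Cd8b1 start. They lay 205 and 34 bp upstream with folds of 8.98 and 8.01, and 208 and 428 bp downstream with folds of 4.16 and 6.38. The strongest one had −log10 p-values of 19.3 and 11.1 in the 2 sets. The signal was therefore higher upstream of the start than within the gene.

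Upstream of Cd8b1 lies the start of a gene on the opposite strand. Smyd1, a histone methyltransferase known best from heart and skeletal muscle, starts at position 71322233, 555 bp from the start of Cd8b1. The region ended 51 bp short of that start, so it counted as the promoter region of both genes, and the 2 could not be separated. Smyd1 had 2 regions in all. At the strongest summit, the sequence printed above held an ETS match (ACTTCC), a CTCF match (CCTGGTGG) and 2 TCF or LEF matches, all within 50 bp of it.

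Cd8a (ENSMUSG00000053977.13, chr6:71373427-71379173, 5 exons, 2 coding starts) encodes the alpha chain, without which no CD8 reaches the cell surface. It had 0 regions. That count was 0 in the thresholded, the pseudoreplicated and the ranked list alike. It was not only the gene that was empty. No peak of any of the 3 lists lay in the 75.9 kb between the end of the Cd8b1 region and a region at chr6:71399243-71399505, which has a fold of 9.60 and is nearest to a start of Rmnd5a.

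That stretch reached 50.1 kb upstream and 25.8 kb downstream of the Cd8a start. It includes the 35.9 kb between Cd8b1 and Cd8a. Between neighbouring regions of the thresholded list the median gap was 17.5 kb. In that list 83.5% of gaps were shorter than the one over Cd8a, so gaps of this length were not rare there. The share was not computed for the longer lists. Reads per base were not among the values analysed, and an interval without a peak is not shown to lack accessibility. The next gene downstream, the ubiquitin ligase subunit gene Rmnd5a, had a promoter region with a fold of 18.5.

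The co-receptor genes have similar promoters by base composition. Within 500 bp of the most upstream coding start, the CpG ratio was 0.293 at Cd4, 0.357 at Cd8a and 0.294 at Cd8b1, all in the fourth decile of coding genes. In that decile 26.0% of genes had a promoter region. Of the 3 genes, Cd8b1 alone had one.

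Zbtb7b (ENSMUSG00000028042.15, chr3:89377644-89394776, minus strand) has 8 coding transcript starts over 6489 bp. Its only region lay at chr3:89393561-89393886, inside the annotated gene, which reaches beyond the coding starts. The single summit of the region lay 47 bp upstream of the most upstream coding start. Its fold was 11.3, higher than 38.2% of all regions, and its −log10 p was 153, higher than 67.9%. The 2 sets gave −log10 p-values of 79.7 and 74.3, and the IDR was 0.000959. At 326 bp it was narrow: 10.7% of all regions were narrower.

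The region was within 1000 bp of 5 of the 8 starts, those from 89393342 to 89393678. The 3 farther downstream, at 89392069, 89387671 and 89387189, had no peak within 1000 bp in any of the 3 lists. Zbtb7b is known to be transcribed from a distal and a proximal promoter, and the region lay at the group of starts farthest upstream. The long noncoding gene Gm15417 overlaps it on the opposite strand, and ATAC-seq does not tell strands apart. In its window, 70.1% of the bases were G or C, and it held 1 SP or KLF match (CCGCCC).

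Zbtb7b gained most, in proportion, from the longer list. The pseudoreplicated list added 5 peaks with folds of 3.08 to 7.05, so that 6 were assigned to Zbtb7b. The highest lay in an intron at chr3:89382084-89382385, 4926 bp downstream of the start at 89387189, with an ETS and a GATA match in its window. The one with the highest −log10 p, 50.8, lay upstream of the 2 starts farthest downstream. At chr3:89388878-89389109, with its summit 1324 bp upstream of the start at 89387671, it had a fold of 5.76, −log10 p-values of 17.0 and 37.5 in the 2 sets and an IDR of 0.0940. A further peak beside it, at chr3:89389156-89389513, had a fold of 4.25 and the lowest IDR of the 19 added peaks at these genes, 0.0585.

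The window of the first of these peaks is printed for its layout. At chr3:89388895-89389095 it holds 2 inverted copies of the element known to be bound by the factor ZNF143, one starting 31 bases before the summit and the other 11 bases after it, with an E-box (CAGCTG) between them. The element was searched for only after the sequence had been seen. At least 1 copy within 100 bp of the summit was found in 0.342% of the 52972 regions of the pseudoreplicated list and in 0.595% of the 29415 thresholded regions. The share with 2 inverted copies was not counted.
Zbtb7b intron, weak peak: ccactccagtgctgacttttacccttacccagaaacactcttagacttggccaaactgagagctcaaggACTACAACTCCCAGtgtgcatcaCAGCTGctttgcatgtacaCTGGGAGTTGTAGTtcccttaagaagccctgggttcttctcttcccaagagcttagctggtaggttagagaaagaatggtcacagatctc

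Among the neighbours of Zbtb7b, Flad1, which encodes the enzyme that makes the cofactor FAD, had a promoter region with a fold of 30.5. Dcst2 and Lenep had 0 regions. The region of Zbtb7b was thus the only thresholded one between the 3′ end of Dcst2 and the promoter region of Flad1.

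**Figure D2:**
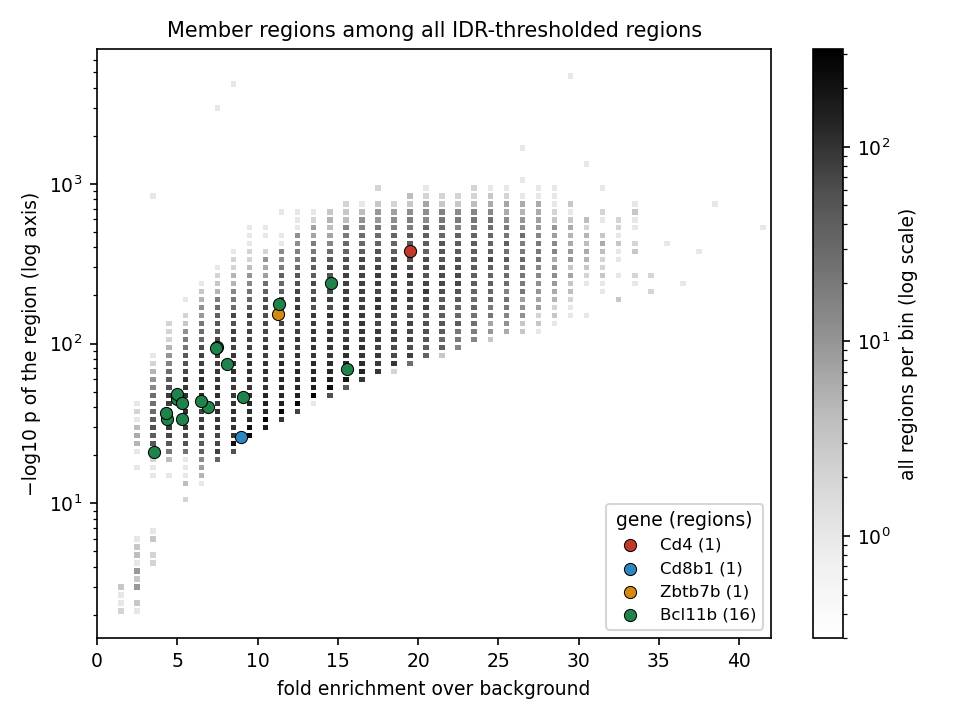
Fold enrichment (x) against −log10 p on a log axis (y). Grey squares are bins of the 29415 thresholded regions, shaded by the number of regions on a log scale. Circles are the 19 regions of the 5 genes. The x axis ends at a fold of 42, so the few regions beyond it, with folds of up to 64.1, are not shown. The Cd4 region lies at 19.5 and 378, the Cd8b1 region at 8.98 and 26.2 near the lower edge of the cloud, and most Bcl11b regions lie to the left of a fold of 10.

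Bcl11b (ENSMUSG00000048251.15, chr12:107910403-108003602, minus strand) spans 93.2 kb in 4 exons with 2 coding starts 188 bp apart. It had 16 of the 19 regions, and 66 genes, 0.302% of coding genes, had as many or more. Its length bears on this count. Per 100 kb of gene body with margins it had 14.5 regions, and 4.03% of coding genes were as dense or denser. Its regions covered 7.57% of the gene and its margins, set against 1.89% at Cd4, 4.35% at Cd8b1 and 1.20% at Zbtb7b.

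The promoter region of Bcl11b lay at chr12:108003745-108004337, with its summit 540 bp upstream. It had a fold of 14.6, higher than 59.1% of all regions, and a −log10 p of 239, higher than 81.9%. The sets gave 147 and 94.5. The promoter sequence is rich in CpG: the ratio was 0.788 around the start, in the eighth decile, where 80.0% of genes had a promoter region. Among the promoters of all coding genes with a promoter region, 37.7% had a lower fold. None of the 13 motifs matched within 100 bases of its summit.

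The region with the greatest fold of Bcl11b was outside the gene. At chr12:108022901-108023646, 19878 bp upstream of the start and beyond the 5 kb margin, it had a fold of 15.6, higher than 64.9% of all regions. Its −log10 p of 69.0 was higher than 38.1% only, and the sets gave 44.9 and 30.6. By fold it stood above the promoter and by p-value below it. Setd3, the histidine methyltransferase gene next upstream, had its own promoter region, with a fold of 16.9.

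Inside the gene 13 regions lay in the 3 introns: 3 in intron 1 (13255 bp), 2 in intron 2 (23577 bp) and 8 in intron 3 (48257 bp). In intron 1 the strongest lay at chr12:107992921-107993859, 10181 bp downstream of the nearest start. It had 3 summits, a fold of 11.3, a −log10 p of 176 and sets of 80.2 and 97.3. The other 2 of intron 1, at 4492 and 7019 bp, had folds of 5.28 and 4.32. Only the first of the 3 exceeded a fold of 10.

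In intron 2 the regions at 20901 and 31836 bp had folds of 6.47 and 7.41, with −log10 p-values of 43.8 and 93.8. The 8 regions of intron 3 lay between 42172 and 84469 bp from the start and had folds of 3.52 to 8.13. The highest of them was the one nearest to intron 2, with a fold of 8.13 and a −log10 p of 74.5, followed by one at 75276 bp with 7.50 and 95.7. The other regions above the lowest had folds of 6.92 at 49864 bp, 5.30 at 66210 bp, 4.98 at 84469 bp, 4.96 at 82135 bp and 4.38 at 71694 bp. Folds in this intron did not follow the distance from the start. The lowest, at chr12:107930647-107931108, had a fold of 3.52 and an IDR of 0.0444, close to the limit of the list; 0.643% of all regions had a lower fold. The last region, at chr12:107908566-107909296, was downstream of the gene within its margin, with a fold of 9.08.

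Strength and number thus differed along Bcl11b. Of its 16 regions 3 had a fold above 10, namely the upstream region, the promoter and the one 10181 bp into intron 1, and 13 had folds of 3.52 to 9.08 with a median of 5.30. The gaps between neighbouring regions ran from 459 to 18563 bp, with a median of 6003 bp. The windows of the upstream region (chr12:108023380-108023580) and of the strongest intron region (chr12:107993133-107993333) are shown because these have, with the promoter, the greatest folds of the gene; they were chosen after the values were seen. Capitals mark a STAT match in the first, and an E-box, a RUNX match (TGTGGT, 9 bases before the summit) and a STAT match in the second.
Bcl11b upstream: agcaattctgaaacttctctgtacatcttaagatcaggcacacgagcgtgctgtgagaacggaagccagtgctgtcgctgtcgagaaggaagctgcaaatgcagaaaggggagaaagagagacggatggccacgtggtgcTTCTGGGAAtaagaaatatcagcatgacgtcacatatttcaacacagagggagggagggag
Bcl11b intron 1: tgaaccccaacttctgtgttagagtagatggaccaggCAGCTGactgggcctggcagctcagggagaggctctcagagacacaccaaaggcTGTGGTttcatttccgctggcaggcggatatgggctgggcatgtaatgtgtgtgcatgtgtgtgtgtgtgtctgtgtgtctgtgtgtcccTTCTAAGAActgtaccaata

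The pseudoreplicated list added 10 peaks to Bcl11b, all in introns, with folds of 2.43 to 5.66, and the ranked list 1 more with a fold of 1.59. Over Cd4, Zbtb7b and Bcl11b the 19 added peaks had a median fold of 3.89, set against 5.25 for the 23608 peaks that list added over the genome. Cd8a and Cd8b1 gained none.

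The wide gene-poor stretch downstream of Bcl11b is known in mouse T cells to hold a distant enhancer of this gene. Between the 5 kb margin of Bcl11b and Vrk1, over 1828 kb at chr12:106077427-107905402, the thresholded list had 24 regions with folds of 4.99 to 28.6 and a median of 12.02. That was 1.31 regions per 100 kb, set against 1.08 over the genome. The stretch holds the coding gene 3110018I06Rik (chr12:107488632-107489636), the next one downstream of Bcl11b, which had 3 regions and no promoter region. The strongest lay at chr12:107404702-107405239, 599 kb downstream of the Bcl11b start and 83.6 kb from that of 3110018I06Rik, the nearest, with a fold of 28.6 and a −log10 p of 213. Its fold was greater than that of any of the 19. This stretch, too, was looked at after its values were known. No link between these regions and a gene was measured. The 100 kb limit of the rule fell into this stretch. The last region inside the limit, 94382 bp from the start with a fold of 9.08, also lay in the 5 kb margin. The first outside lay at chr12:107832849-107833342, 170211 bp from the start, with a fold of 11.1.

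As a group the 19 regions were weaker than most. Their median fold was 7.41 (3.52 to 19.5, interquartile range 5.13 to 10.2), set against 13.1 over all regions (interquartile range 9.30 to 17.5), and 3 of the 19 were above that overall median. Their median −log10 p was 46.2, set against 92.5, and 6 were above it. Their median width was 462 bp, set against 659 bp. Bcl11b supplied most of these regions, so the medians mainly describe its introns: its 13 intragenic regions had a median fold of 5.30, set against 12.1 for all 18231 regions outside promoters.

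The authors ranked 2 sets of reads against each other. The values of the sets were about as close at these genes as over the genome, with slightly larger median ratios. Whether the sets are the libraries or random splits of the reads is not stated. Both libraries came from 1 mouse, so in either case the spread of the sets is technical and holds none between animals. Of the 32 summits in the 19 regions, 29 had −log10 p-values within 2-fold of each other, with a median ratio of the larger to the smaller of 1.37. Neighbouring summits can share the value of a set, as at Cd8b1, so the summits are not separate comparisons. Over all 58138 thresholded summits 84.9% were within 2-fold, with a median ratio of 1.27. Among the 23 other ranked summits at the 5 genes 17 were within 2-fold, with a median ratio of 1.70, set against 73.6% and 1.57 over the genome.

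**Figure D3:**
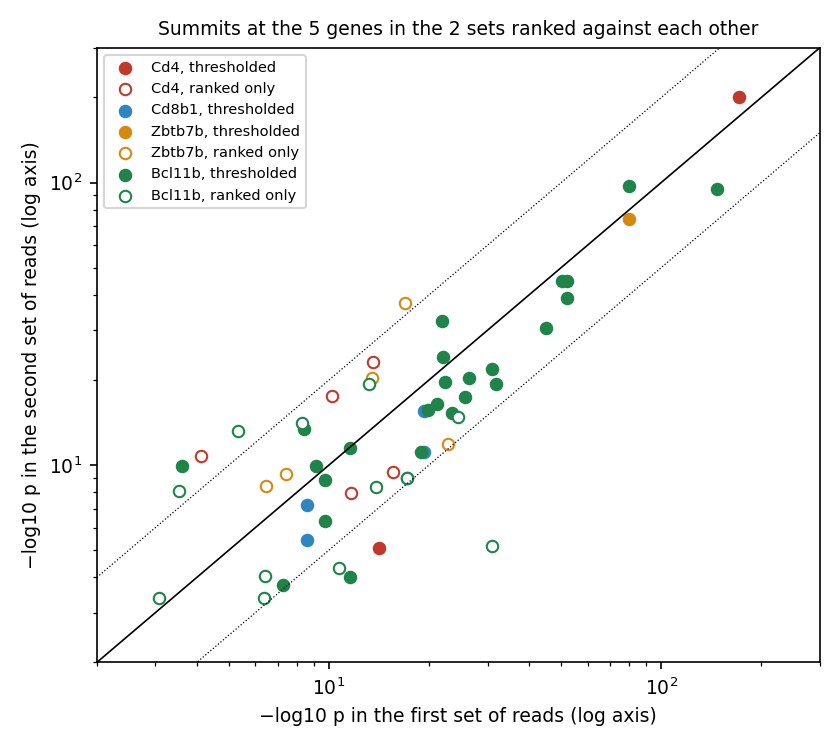
−log10 p in the second set of reads (y) against the first (x), both on log axes, for each summit at the 5 genes; filled circles are summits of the thresholded list, open circles summits of the ranked list alone, the solid line marks equal values and the dotted lines a 2-fold difference. Of the filled circles 29 of 32 lie between the dotted lines, and the Cd4 intron summit is farthest to the upper right at 171 and 201.

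Motif matches at the 19 summits were few. The motifs were searched on both strands within 50 bp of each summit, and matches of different motifs may overlap. TCF or LEF (CTTTGA) matched at 3 of the 19 (15.8%, 95% exact binomial interval 3.38 to 39.6%), set against 7.17% of all regions. STAT (TTCNNNGAA) matched at 2 of 19 (10.5%), set against 2.78%, and both matches were at Bcl11b. The intervals, which cover counting error only, include the shares over all regions for TCF or LEF and for STAT (1.30 to 33.1%).

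The remaining motifs were as rare. RUNX (TGTGGT) matched at 2 regions, set against 13.7% of all regions, and ETS (GGAAGT) at 3, set against 20.9%. CTCF (CCACNAGG) and SP or KLF (GGGCGG) matched at 2 each, set against 5.13% and 20.3%, and the E-box CAGCTG at 1, set against 6.19%. The other 6 motifs had no match within 50 bp of the 19 summits. Over all regions AP-1 (TGANTCA) matched at 6.35%, NFAT (TGGAAA) at 7.19% and the GATA family motif (AGATAA) at 3.32%. Forkhead (TGTTTAC) matched at 1.48% of all regions, NF-kB (GGGANTTTC) at 0.959% and Myb (AACTGC) at 5.72%. With 19 regions, a count of 0 has an upper bound of 17.6%, so no difference from those shares was detectable. Both RUNX matches were in Bcl11b introns. Within 100 bp of the summits, RUNX matched at 4 regions and ETS at 6, set against 20.7% and 29.4% of all regions. In that wider window NFAT matched at 3, Myb at 2 and forkhead at 1, set against 14.5%, 11.2% and 3.06%, while AP-1, GATA and NF-kB still had no match. A match is a property of the letters and not a bound site.

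The regulators known to act on this choice were described as a list of 33 genes. Promoter regions were found at 31 of 33 (93.9%), set against 49.7% of all coding genes, and at least 3 regions at 27 of 33, set against 21.0%. They had a median of 5 regions (1 to 20), set against 1 for all coding genes. The list was not matched to all coding genes for CpG ratio or gene length. Most regions were assigned to Tox, a chromatin-binding factor needed for CD4 lineage cells, with 20, to Runx1 with 19 and to the TCF family member Lef1 with 16, the same number as Bcl11b. Per 100 kb of gene body with margins Tox had 6.35, Runx1 6.82 and Lef1 8.88 regions, set against 14.5 at Bcl11b.

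The list's promoters were not strong. Their median fold was 10.8 (3.68 to 26.5), set against 16.4 over all coding genes with a promoter region; those of Zbtb7b and Bcl11b, at 11.3 and 14.6, lay in that range. The 2 genes without a promoter region were Tcf7, which encodes TCF-1 and had 8 regions, and Myb, which had 5, none in its body or margins. Runx3, the factor of the CD8 lineage, had 10 regions and the highest promoter fold of the list, 26.5. Gata3, which acts upstream of Zbtb7b, had 8 regions and a promoter fold of 10.2.

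**Figure D4:**
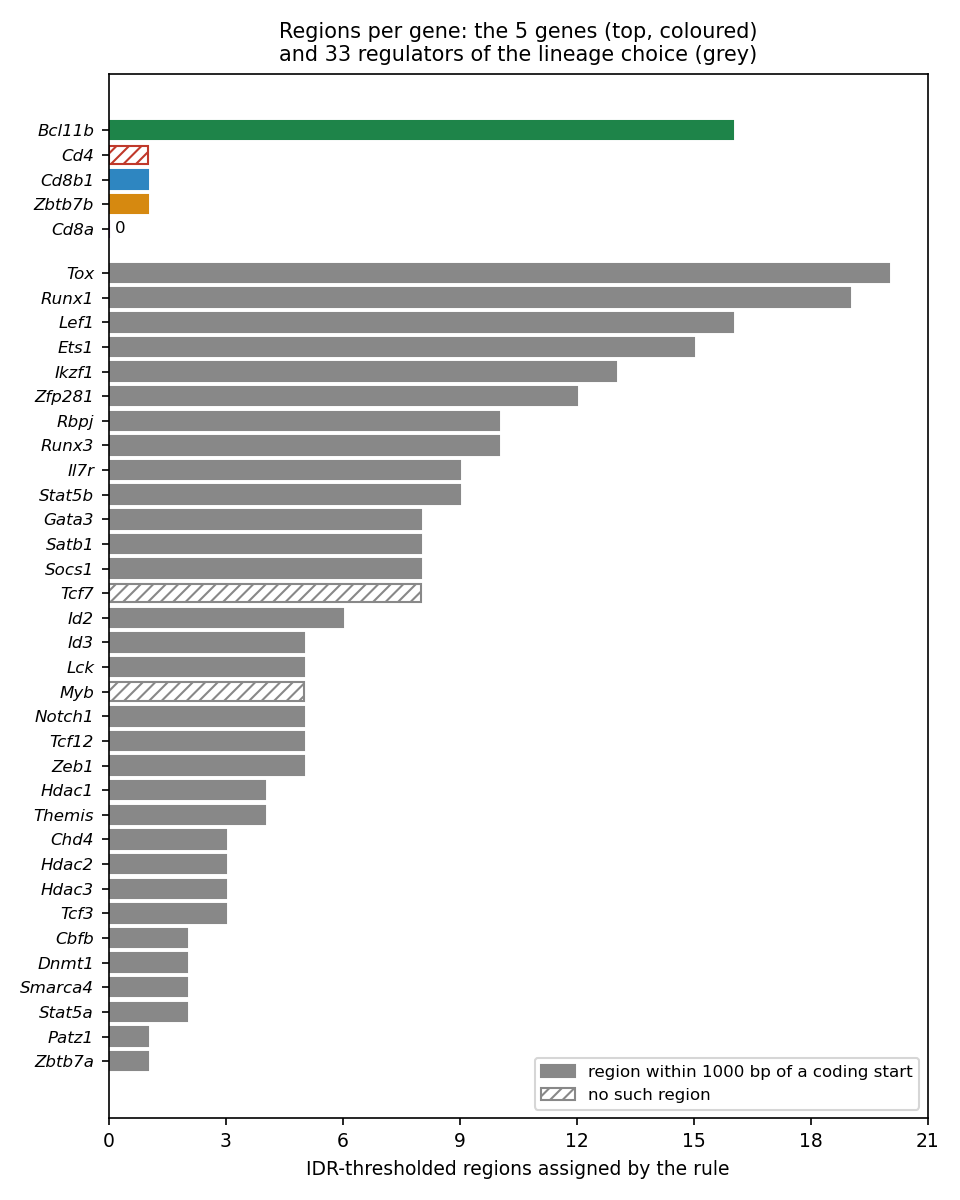
Number of thresholded regions assigned to each gene (x) for the 5 genes, in colour at the top, and the 33 regulators in grey; filled bars have a region within 1000 bp of a coding start and hatched bars have none. Bcl11b has 16, Cd4, Cd8b1 and Zbtb7b have 1 each and Cd8a has 0, while the regulators have 1 to 20.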

How the data were processed

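ATAC-seq was done on 2 technical replicates of 1 biological replicate. Per the labels, positions are on mm10. The 3 deposited lists hold 58138 (thresholded), 86938 (pseudoreplicated) and 87698 (ranked) peaks on assembled chromosomes and were taken to pool both libraries. For each peak the authors deposited a −log10 p-value, a linear ratio (fold enrichment) and a score that follows the −log10 of the IDR; units were read from the values. The lowest thresholded score was 540. For the aligner, caller, versions, Tn5 shift, background and read counts no source used here gives an entry, so depth is unknown.

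Overlapping or touching peaks were merged; the peak with the greatest fold gave fold and summit. Genes came from GENCODE M21 and bases from GRCm38.p6, after 21 chromosome names were matched. Python 3.11.15, pandas 2.3.3, scipy 1.17.1 and pysam 0.24.0 were used, and the assignment was tested on simulated data. The members, lists, motifs and rules were chosen with earlier results of these data known. Named were all 5 genes with every region and the genes next to them or nearest to their regions. The 3 regulators with most regions and those without a promoter region were named too. Runx3, Gata3, Id2, Id3, Socs1, Vrk1, Gm15417 and Foxp3 were added after values were seen. No test was run, since there was 1 group.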

Additional observations from a re-analysis of the deposited data

How the results depend on the processing

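Cd8a had 0 regions in the pseudoreplicated and ranked lists. The other alternatives could not have raised that count. This holds for the limit of 1000 kb too, because regions beyond the gap lie nearer the starts of other genes. In the pseudoreplicated list the 5 genes had 38 regions in place of 19, with a median fold of 4.97 in place of 7.41: 5 at Cd4, 6 at Zbtb7b and 26 at Bcl11b. In the ranked list they had 39, with a median of 4.96: 5, 6 and 27. With an IDR of at most 0.01, Cd8b1 had 0 regions and the median fold was 8.13. In the upper 50% of regions by fold 3 remained, with a median of 15.6: 2 at Bcl11b, 0 at Cd8b1 and 0 at Zbtb7b, and 1 of the 5 genes had a promoter region. With summits counted singly there were 32, with a median of 5.29: 2 at Cd4, 4 at Cd8b1 and 25 at Bcl11b. With a limit of 1000 kb to the nearest start the median was 7.46. The settings differ in which peaks they admit, merge or assign to a gene, and the shifts follow from that. The values given here are the counts that moved by over 1.5-fold and the medians that differed at 3 significant digits. At 100 bp in place of 50 bp from the summit, the shares with a RUNX and an ETS match were 21.1% and 31.6% in place of 10.5% and 15.8%. The regulators with a promoter region fell to 11 of 33 in the upper 50% by fold. No replicate could be left out, because the lists pool both libraries, and no paired analysis was possible because the study has 1 group. Depth is unknown, so no detection limit could be given for the intervals without a peak.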
